A study of Mus musculus with 2 samples.

Results

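The transcriptomes compared here are those of cycling and resting immature γδ T cells that had taken up much TMRE, a fluorescent dye drawn into mitochondria that hold a strong membrane potential. Of 1398 cell barcodes in the 2 deposited libraries, 136 were classed as cycling and 133 as resting. The members were chosen by measured values, the UMIs of 8 cell cycle genes. A barcode of the TMREhi library had to show at least 500 genes and at least 15% of its UMIs (unique molecular identifiers, each standing for 1 captured mRNA molecule) in cytosolic ribosomal protein genes, which 292 barcodes did. The raw UMIs of Mki67, Top2a, Cdk1, Ube2c, Birc5, Ccnb2, Cenpf and Hmmr were then added. A sum of 5 or more made a barcode cycling, a sum of 0 or 1 made it resting, and 23 barcodes with 2 to 4 belonged to neither class.

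Both libraries came from wild-type C57BL/6 fetal thymic lobes taken at embryonic day 15 and cultured for 2 days without any treatment. Thymocytes were stained with TMRE, and γδ T cells carrying CD24, a surface marker of immature thymocytes, were sorted by TMRE signal into a TMREhi and a TMRElo population. Each population gave 1 droplet library of mRNA 5′ ends. The labels do not say how many embryos or lobes were pooled, and the cells were those of lobes in organ culture rather than of an intact fetus.

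A dividing cell copies its DNA in S phase, when it makes nucleotides, replication factors and new histones, and separates the copies in M phase with a spindle of tubulin, kinesins and centromere proteins. Genes of S phase are largely switched by E2F factors, and many genes of G2 and M phase by the DREAM and MuvB complexes through a short promoter element called CHR, often with CCAAT boxes bound by NF-Y. In the fetal thymus, γδ T cells arise in waves that use different Vγ and Vδ segments, and some acquire an IL-17-producing or an interferon-γ-producing programme before they leave.

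The rule genes themselves gave the classes, so their values only describe them. Cycling barcodes held a median of 39.5 rule-gene UMIs and at most 172. The edge was thinly filled: 42 barcodes had 1 rule UMI, 10 had 2, 7 had 3, 6 had 4, 5 had 5 and 6 had 6, while 91 had 0. Mki67, a protein coating mitotic chromosomes, had 242 UMIs in cycling against 5 in resting barcodes once all barcodes were brought to equal depth. Top2a, which untangles DNA, had 412 against 8. Cdk1, the kinase that starts mitosis, had 105 against 1. Ube2c, which marks mitotic cyclins for destruction, had 268 against 4. All 4 defining markers were thus on the side the labels give.

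Depth differed between the classes, and the rule, which adds raw UMIs, is met more readily by a deeper barcode. With classes cut instead from counts at equal depth, the median raw totals were still 14724.5 and 6172 UMIs. Cycling barcodes had a median of 14852 UMIs (2967 to 27747) and 3405 genes. Resting barcodes had a median of 5010 UMIs (813 to 14564) and 1776 genes, so cycling barcodes were 2.96 times as deep. Median ribosomal shares were 31.0% and 34.0%, and median mitochondrial shares 3.21% and 3.93%. A barcode of more UMIs can come from a larger cell or from better capture, and these cannot be told apart here. All levels and ratios below therefore come from barcodes thinned at random to 3000 UMIs each, which left 135 cycling and 107 resting barcodes. A level is given as summed UMIs or as CPM, its UMIs scaled to a class total of 1000000, and 1 UMI in a class is worth 2.47 CPM in cycling and 3.12 CPM in resting barcodes.

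**Figure D1:**
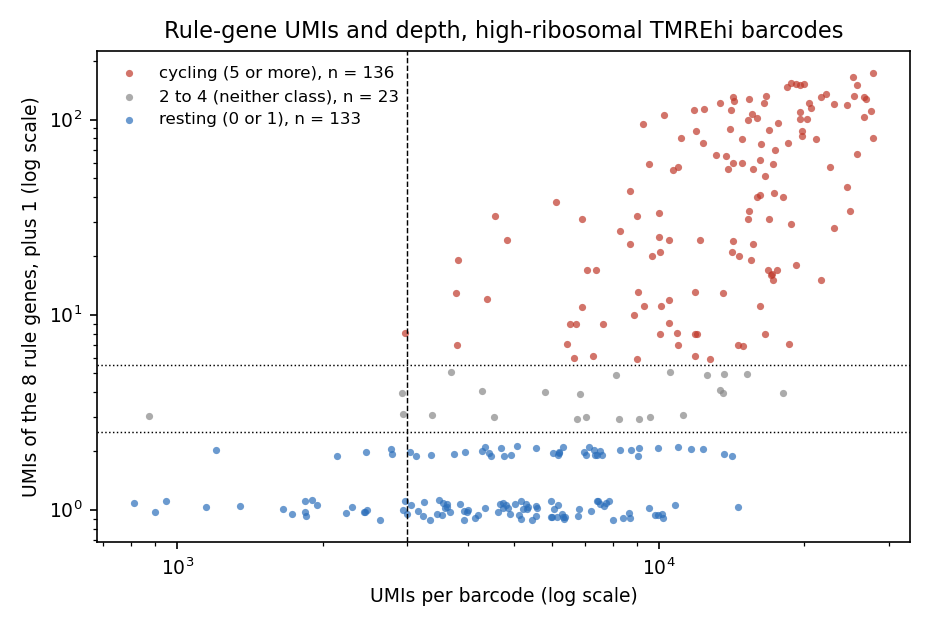
Each point is a TMREhi barcode with at least 15% ribosomal protein UMIs. The x axis gives its raw UMIs and the y axis its UMIs of the 8 rule genes plus 1, both on log scales, with small random vertical offsets, dotted lines at the class limits and a dashed line at 3000 UMIs. The 136 cycling barcodes lie mostly to the right of the 133 resting ones, and their medians are 14852 and 5010 UMIs.

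Across genes, 4478 that were not rule genes had at least 20 thinned UMIs over both classes. A gene was called where its ratio of cycling to resting level was at least 2, or at most 0.5, and the exact 95% interval of that ratio excluded 1. The interval covers counting error only. By this call 445 genes (9.94%) were higher and 338 (7.55%) lower in cycling barcodes, and the median log2 ratio of all tested genes was 0.06. With 1 library and classes cut from its own values, barcodes are not replicates, so these are descriptions without a test. Higher genes made up 56.8% of the calls, but 68.8% among the 42 cycling and 63 resting barcodes of 5000 to 12000 raw UMIs, where the classes were closer in depth and were thinned to 5000 UMIs. In that setting 340 of 3389 tested genes (10.0%) were higher and 154 (4.54%) lower. Depth still differed there, with median raw totals of 9596 UMIs in cycling and 6966 in resting barcodes. Another random draw of the thinning left 307 of the 445 and 210 of the 338 called, and 441 and 337 on the same side of 1, so a call near the limits is less firm than its direction. With a minimum of 50 UMIs 11.6% of tested genes were higher and 6.39% lower, and with a 3-fold limit 5.61% and 3.68%.

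The mitotic genes differed together. Of 58 members of the G2 and M phase list, 49 passed the minimum and 48 of these were called higher (against 9.94% of all tested genes), with a median log2 ratio of 3.52. Since the rule genes are themselves of this phase, nothing is read from that count. Each of the 135 cycling barcodes held between 3 and 93 UMIs of the list, with a median of 32. Resting barcodes held between 0 and 12, with a median of 4, so the ranges overlapped at their ends. Nusap1, which bundles spindle microtubules, had 100 UMIs in cycling and 1 in resting barcodes, a 79.3-fold ratio with an interval from 13.9 to 3161. Cenpa, the histone H3 variant that marks centromeres, had 116 against 7 UMIs (13.1-fold, 6.18 to 33.4). Smc2, a condensin subunit that compacts chromosomes, had 157 against 11 (11.3-fold, 6.15 to 23.1). Hmgb2, a DNA-bending protein and the most abundant member, had a median of 9 UMIs and a maximum of 23 in cycling barcodes, against 0 and 9 in resting ones. Its levels were 3072 and 336 CPM (9.13-fold, 7.50 to 11.2). Plk1 and Aurka, mitotic kinases, had 45 against 1 and 27 against 1 UMIs. Cdc20, an activator of the ubiquitin ligase that ends mitosis, had 42 against 2. Pttg1, securin, was the member not called. It was singled out after its values were seen.

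Replication-dependent histones, whose mRNAs mostly end in a stem-loop in place of a poly(A) tail, had few UMIs in resting barcodes. Of 53 members 23 passed the minimum and all 23 of those were called higher (against 9.94% of all tested genes). Their summed level was 7909 CPM in cycling and 455 CPM in resting barcodes (17.4-fold, 14.7 to 20.7). Hist1h2ap had a median of 9 UMIs and a maximum of 32 in cycling barcodes, and a median of 0 and a maximum of 4 in resting ones. Its sums were 1305 and 17 UMIs (60.8-fold, 37.9 to 105). Hist1h2ae had 443 against 12 UMIs (29.3-fold, 16.6 to 57.1), and the linker histone Hist1h1b 206 against 7 (23.3-fold, 11.1 to 58.7). Many histone genes are near-identical copies, and reads may have been divided among them, so the sum over the list is firmer than the value of any copy.

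Promoters are shown for members picked because they had large ratios and because their windows hold the letters searched, so they are not typical of all members. The windows of Nusap1 and Tyms hold none of these letters, and that of Rrm2 a single CCAAT. Sequences were taken from RefSeq on GRCm38.p6 as 250 bases before to 50 after the gene's start. Capitals mark exact matches on either strand to TTTGAA, the core of the CHR element, to CCAAT, and, for E2F, to TTTCCCGC, TTTGGCGC, TTTCGCGC or TTTGCCGC. The marked motifs do not overlap in these windows. Hist1h2ae lies at chr13:23571171-23571470 on the minus strand, Hist1h1b at chr13:21780576-21780875 on the minus strand, Cenpa at chr5:30666636-30666935 on the plus strand and Smc2 at chr4:52438971-52439270 on the plus strand. Pclaf, at chr9:65890073-65890372 on the plus strand, is shown for contrast, since its window holds an E2F match and no TTTGAA.
Hist1h2ae: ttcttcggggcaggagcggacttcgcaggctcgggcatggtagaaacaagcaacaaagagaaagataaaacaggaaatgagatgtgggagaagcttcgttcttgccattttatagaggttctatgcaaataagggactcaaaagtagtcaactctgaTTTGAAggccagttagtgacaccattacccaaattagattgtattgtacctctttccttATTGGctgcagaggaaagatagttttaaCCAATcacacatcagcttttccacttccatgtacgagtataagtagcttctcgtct
Hist1h1b: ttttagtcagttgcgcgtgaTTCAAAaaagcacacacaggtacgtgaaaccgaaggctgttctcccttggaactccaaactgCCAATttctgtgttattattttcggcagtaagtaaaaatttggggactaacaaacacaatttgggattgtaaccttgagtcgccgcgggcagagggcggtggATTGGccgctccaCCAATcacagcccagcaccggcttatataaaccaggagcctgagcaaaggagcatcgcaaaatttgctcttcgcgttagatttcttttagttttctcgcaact
Cenpa: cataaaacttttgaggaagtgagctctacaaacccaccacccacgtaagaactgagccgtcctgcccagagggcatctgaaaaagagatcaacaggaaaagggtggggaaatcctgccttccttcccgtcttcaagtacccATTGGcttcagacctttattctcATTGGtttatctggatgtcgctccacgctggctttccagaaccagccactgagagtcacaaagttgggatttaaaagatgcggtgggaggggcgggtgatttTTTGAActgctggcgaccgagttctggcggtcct
Smc2: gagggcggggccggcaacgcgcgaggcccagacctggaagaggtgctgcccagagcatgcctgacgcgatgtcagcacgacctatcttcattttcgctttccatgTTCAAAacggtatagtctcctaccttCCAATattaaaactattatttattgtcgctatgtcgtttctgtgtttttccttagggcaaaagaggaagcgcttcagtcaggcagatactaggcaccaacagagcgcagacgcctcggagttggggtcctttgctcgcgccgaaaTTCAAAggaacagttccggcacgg
Pclaf: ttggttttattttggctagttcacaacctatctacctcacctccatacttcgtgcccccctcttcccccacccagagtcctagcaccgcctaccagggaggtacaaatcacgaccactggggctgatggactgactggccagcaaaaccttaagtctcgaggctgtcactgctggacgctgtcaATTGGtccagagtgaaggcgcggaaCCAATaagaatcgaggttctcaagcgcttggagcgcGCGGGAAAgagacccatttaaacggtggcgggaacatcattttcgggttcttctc

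Each position is the distance from the gene's start to the first base of the match. The TTTGAA match lies at -93 in Hist1h2ae, at -230 in Hist1h1b, at 16 in Cenpa and at -145 and 26 in Smc2. CCAAT lies at -34 and -6 in Hist1h2ae, at -168, -66 and -53 in Hist1h1b, at -109 and -86 in Cenpa, at -119 in Smc2 and at -66 and -41 in Pclaf, whose E2F match lies at -5. Of 46 G2 and M phase members with a promoter in the table, 30 (65.22%) held TTTGAA, as did 7 of the 8 rule genes. The share was 17.78% of S phase members (8 of 45), 44.9% of replication histones (22 of 49), 12.94% of tested genes and 18.11% of all 27025 promoters. CCAAT was held by 76.09% of G2 and M phase members, 60% of S phase members, 81.63% of replication histones and 37.92% of all promoters. The E2F letters were held by 26.67% of S phase members (12 of 45), 18.37% of replication histones and 4.348% of G2 and M phase members. The share was 5.464% of tested genes and 2.316% of all promoters. These matches describe letters in a window and show no binding.

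Of 62 members of the S phase list 49 passed the minimum, 40 were called higher (against 9.94% of all tested genes) and none lower, with a median log2 ratio of 1.59. Rrm2, the subunit of ribonucleotide reductase made in S phase, had 120 UMIs in cycling and 1 in resting barcodes (95.1-fold, 16.7 to 3788). Tyms, which makes thymidylate, had 102 against 6 (13.5-fold, 5.98 to 37.6). Clspn, a replication checkpoint adaptor, had 48 against 2. Pclaf, a partner of the DNA clamp PCNA that is outside the list, had a median of 4 and a maximum of 12 UMIs in cycling barcodes against 0 and 4 in resting ones. Its sums were 512 and 12 UMIs (33.8-fold, 19.2 to 65.9). The clamp itself, Pcna, had 113 against 34 UMIs (2.63-fold, 1.78 to 3.99), and the helicase subunit Mcm6 75 against 29 (2.05-fold, 1.32 to 3.26). Pcna had a ratio of 4.73 and Mcm6 of 3.43 among barcodes of 5000 to 12000 UMIs.

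Chromatin and spindle building blocks followed. Of the 31 tested members of the list of variant histones and chromatin proteins 21 were called higher (against 9.94%), none lower. H2afx, the histone variant phosphorylated at DNA breaks, had 241 against 18 UMIs (10.6-fold). H2afz had 1247 against 248 (3.99-fold). Ptma, prothymosin α, an abundant nuclear protein, had medians of 24 and 8 UMIs and levels of 8410 and 3109 CPM (2.70-fold, 2.52 to 2.91). Stmn1, which destabilises microtubules, had 683 against 78 (6.94-fold). Of 25 tested tubulin and actin genes 6 were called higher (against 9.94%), and all 6 were tubulins. With 5000 to 12000 UMIs 3 of 21 were (against 10.0%). Tuba1b had 628 against 73 UMIs (6.82-fold) and Tubb5 655 against 94 (5.52-fold). The actin side was not called, with Actb at 5005 against 5483 CPM (0.913) and Tmsb4x, thymosin β4, at 4840 against 9187 CPM (0.527).

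**Figure D2:**
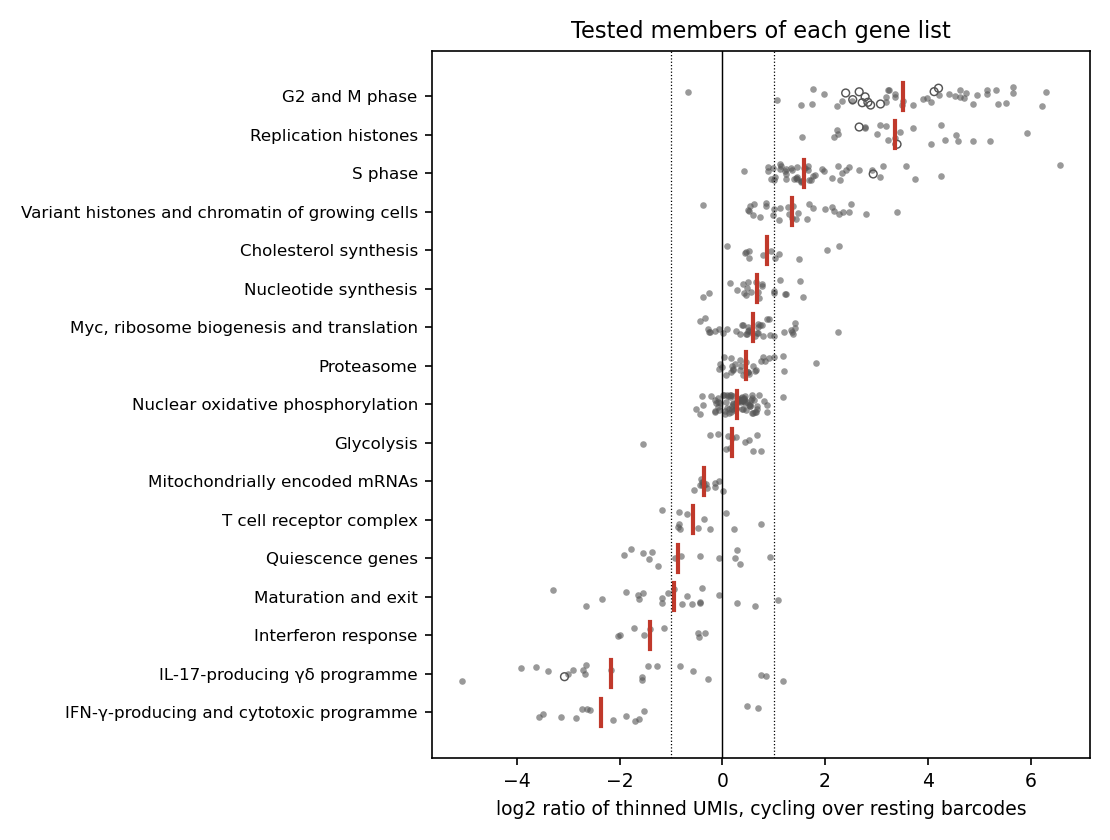
Each point is a tested gene. The x axis gives its log2 ratio of thinned UMIs in cycling over resting barcodes, open circles stand for genes with no UMI in 1 class (set at a floor of 3 counts there), red bars are list medians and dotted lines mark 2-fold. Medians run from 3.52 for G2 and M phase to -2.35 for the interferon-γ-producing and cytotoxic list.

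Regulators of G1 gave mixed values. Of 14 tested members 3 were called higher (against 9.94%) and 1 lower (against 7.55%), so the lower count is near the share of all genes. The higher ones were E2f2 (19 against 2 UMIs), its partner Tfdp1 (55 against 13; 3.35-fold, 1.81 to 6.69) and the pocket protein Rbl1 (24 against 3). None of these calls was made among barcodes of 5000 to 12000 UMIs, where Tfdp1 had a ratio of 1.73 (0.906 to 3.31), E2f2 and Rbl1 were under the minimum and the CDK inhibitor Cdkn2d was higher (2.89). Ccnd2, a cyclin that starts G1, was the lower one, with 45 against 78 UMIs (0.457, 0.310 to 0.668), while its relative Ccnd3 was not called (1.22, 0.849 to 1.76). The CDK inhibitors Cdkn1b (17 against 16 UMIs) and Cdkn1a (0 against 1) had too few UMIs to show a difference. Of 14 tested quiescence genes 6 were called lower (against 7.55% of all tested genes) and none higher. Cd52, a small lymphocyte surface protein, had medians of 1 and 8 UMIs and levels of 1005 and 2698 CPM (0.372, 0.330 to 0.420). Btg1, an antiproliferative factor, had 35 against 72 UMIs, and Txnip, which restrains glucose uptake, 11 against 33. Klf2 (1.22) and Foxo1 (0.740), factors of resting and recirculating T cells, were not called. Among barcodes of 5000 to 12000 UMIs 2 of 12 tested members were lower (against 4.54%) and 1, Klf2, was higher (2.02, 1.25 to 3.29), and Cd52 was not called (0.667).

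Genes of growth and metabolism were compared next. Of 38 tested genes of Myc, ribosome biogenesis and translation 8 were called higher (against 9.94%) and none lower, and the summed ratio was 1.5 (1.44 to 1.56). At totals of 5000 to 12000 UMIs 3 of 38 were higher (against 10.0%) and 1 lower, and the sum was 1.15. Nop56, a nucleolar protein of rRNA modification, had 96 against 16 UMIs (4.76-fold, 2.78 to 8.65; 2.00 at 5000 to 12000 UMIs), and Ran, the GTPase of nuclear transport, 519 against 160 (2.57-fold, 2.15 to 3.09). Myc itself was not called (43 against 21 UMIs; 1.62, 0.942 to 2.88). Cholesterol synthesis genes had a summed ratio of 1.91 (1.60 to 2.30), and 4 of 12 tested were called higher (against 9.94%). These included Fdps (52 against 10 UMIs) and Idi1 (49 against 8), enzymes of isoprenoid synthesis. With totals of 5000 to 12000 UMIs only 4 members reached the minimum and 1 was called, Fdps was not (12 against 9; 2.00, 0.773 to 5.37) and Idi1 was under the minimum.

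Of 76 nuclear genes of oxidative phosphorylation only Ndufv1, a complex I subunit, was called higher (43 against 15 UMIs), below the 9.94% of all tested genes. Yet 62 of the 76 had a ratio above 1, against 2396 of all 4478 tested genes, and the list's summed ratio was 1.2 (1.17 to 1.24). The mRNAs of the mitochondrial genome lay on the other side: 12 of 13 had a ratio below 1, against 2082 of all 4478 tested genes. None was called and the sum was 0.806 (0.788 to 0.824). That direction did not hold in every set of barcodes, and the cause was not tested. It held where Trgv2 was the most abundant γ segment (0.772) and without barcodes holding Tcrg-V6 or Trdv4 (0.753). Among barcodes of 5000 to 12000 raw UMIs, thinned to 5000, the mitochondrial sum was 1.14 (1.11 to 1.17) and the nuclear sum 1.12 (1.08 to 1.15). Glycolysis genes had a summed ratio of 1.31 (1.23 to 1.39), with Gapdh at 1.69 and Ldha at 1.37, neither called, and Pfkp, a phosphofructokinase, called lower with 10 against 23 UMIs. That call did not hold among barcodes of 5000 to 12000 UMIs, where Pfkp had a ratio of 1.12, Ldha 0.939 (0.768 to 1.15) and the glycolysis sum was 1.06 (0.982 to 1.13).

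Effector programmes were lower in cycling barcodes. Of 29 members of the IL-17 list 21 passed the minimum and 15 were called lower (against 7.55% of all tested genes), none higher. The list includes the receptor genes Trdv4 and Tcrg-C1, so its values partly count receptor transcripts. Trdv4 gave 36 of its 633 cycling and 301 of its 1810 resting UMIs. A resting barcode held a median of 11 UMIs of the list (0 to 54) and a cycling barcode 3 (0 to 39), so the ranges overlapped widely. Il7r, the interleukin-7 receptor, had 32 UMIs in cycling and 161 in resting barcodes (0.158, 0.104 to 0.231). Cd163l1, a scavenger receptor of IL-17-producing γδ cells, had 39 against 231 (0.134, 0.0928 to 0.188). Maf, a transcription factor of the programme, had 41 against 96 (0.339, 0.229 to 0.493). Among barcodes of 5000 to 12000 UMIs, 11 of 18 tested members were called lower (against 4.54%) and the summed ratio was 0.452 (0.406 to 0.502), against 0.277 (0.253 to 0.304) over all depths. At those totals Il7r (0.496, 0.332 to 0.724), Cd163l1 (0.319, 0.212 to 0.467) and Maf (0.375, 0.224 to 0.604) were still called lower, Il7r and Cd163l1 less strongly. The early factors Sox13 (20 against 7 UMIs; 2.26, 0.920 to 6.34), Sox4 (0.821) and the kinase Blk (0.674) were not called, and at 5000 to 12000 UMIs Sox13 (0.818) and Sox4 (1.26) lay on the other side of 1. Il17a and Il17f did not reach the minimum.

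Of 25 members of the interferon-γ-producing and cytotoxic list 14 passed the minimum and 12 were called lower (against 7.55%). The chemokine Ccl5 had 57 UMIs in cycling and 535 in resting barcodes (0.0844, 0.0631 to 0.111), with 1 resting barcode at 97. The NK receptor chain Klrd1 had 31 against 153 (0.161, 0.105 to 0.237), the chemokine Xcl1 17 against 90 (0.150, 0.0836 to 0.253) and the signalling adaptor Tyrobp 19 against 170 (0.0886, 0.0520 to 0.143). Gzma, granzyme A, lay on the other side at 1798 against 1106 CPM (1.63, 1.43 to 1.85), uncalled. It made up 728 of the list's 1124 UMIs in cycling barcodes. Per barcode the median of the list was 5 UMIs in both classes. Resting barcodes spread further, with an upper quartile of 27 UMIs and a maximum of 196, against 11 and 66 in cycling barcodes.

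Genes of maturation and thymic exit were lower too, with 10 of 21 tested called (against 7.55%). H2-K1, a class I MHC heavy chain, had 79 against 231 UMIs (0.271, 0.207 to 0.351), and Itgb7, an integrin of gut homing, 17 against 68 (0.198, 0.109 to 0.341). S100a6, a calcium-binding protein outside the lists, had 53 against 323 (0.130, 0.0954 to 0.174). The exit receptor S1pr1 had only 10 against 12. Among barcodes of 5000 to 12000 UMIs 4 of 18 tested exit genes were called lower (against 4.54%) and 1 higher (against 10.0%), while H2-K1 (0.583) and Itgb7 (0.767, 0.437 to 1.31) were not called. Cd24a, the immaturity marker used for the sort, was called higher (61 against 18 UMIs; 2.69, 1.57 to 4.83). That call was not made among barcodes of 5000 to 12000 UMIs (17 against 14; 1.82, 0.845 to 3.99), in Trgv2-led barcodes (1.79, 0.893 to 3.82) or without barcodes holding Tcrg-V6 or Trdv4 (1.87). The receptor chain Cd3e had 551 against 984 CPM (0.559), which was not called.

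Of 9 tested interferon response genes 6 were called lower (against 7.55%), among them Ifi203 (21 against 66 UMIs) and Irf1 (13 against 34). Their sum was 0.477 (0.402 to 0.566), but 1.18 (0.989 to 1.40) among barcodes of 5000 to 12000 UMIs, so its direction is not settled. Over all depths 1 cycling barcode held 37 of the 221 cycling UMIs. Without 3 barcodes of high myeloid counts, described below, the cycling UMIs were 184 and the ratio 0.420 (0.349 to 0.504). Among barcodes of 5000 to 12000 UMIs myeloid markers still summed to 128 UMIs in the cycling class. Irf1 was not called there (0.808, 0.390 to 1.60). Heat shock gene Hsp90aa1 was higher (2.41-fold), while the early response genes Junb (11 against 32 UMIs) and Ier2 (22 against 41) were lower. At 5000 to 12000 UMIs neither Hsp90aa1 (1.51) nor Ier2 (0.771, 0.411 to 1.40) was called.

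The classes also differed in their receptor segments, in the names the files give. For each barcode the V segment with the most thinned UMIs of its chain was taken as leading. Trdv4 led in 6 of 135 cycling (4.44%, exact interval 1.65 to 9.42) and in 47 of 107 resting barcodes (43.9%, 34.3 to 53.9). Tcrg-V6 led in 2 cycling and 24 resting barcodes (22.4%, 14.9 to 31.5), and Tcrg-V5 in 0 and 6. Trgv2 led in 65 cycling (48.1%, 39.5 to 56.9) and 45 resting barcodes (42.1%, 32.6 to 52.0), with overlapping intervals. Tcrg-V4 led in 16 and 5, Tcrg-V1 in 14 and 5, and Trdv2-2 in 32 and 12. No γ segment UMI was left in 15 cycling and 9 resting barcodes, and no δ segment UMI in 54 (40%) and 21 (19.6%). The shares above count these barcodes too.

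Within resting barcodes the segments went with the effector lists. The 24 led by Tcrg-V6 had a median of 24.5 IL-17 list UMIs and 1.5 cytotoxic list UMIs, and the 6 led by Tcrg-V5 had 2.5 and 69. The 45 led by Trgv2 had 8 of each. Trdv4 and the constant gene Tcrg-C1 are members of the IL-17 list, so its UMIs and the receptor segments are not independent measures. Over the 107 resting barcodes, which share 1 library, Spearman's rho between the lists was -0.54.

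Effector lists were also compared within subsets by receptor segment. With only Trgv2-led barcodes (65 cycling, 45 resting), 9 of 15 tested IL-17 genes and 8 of 10 cytotoxic genes were called lower (against 5.43% of all tested genes; 9.84% were higher), and the summed IL-17 ratio was 0.315 (0.273 to 0.364). The δ segment still differed there, with Trdv4, a member of the IL-17 list, at 0 UMIs in cycling and 66 in resting barcodes. Without any barcode holding a Tcrg-V6 or Trdv4 UMI (118 cycling, 58 resting), 6 of 15 and 10 of 13 were called lower (against 5.12%; 8.95% were higher) and the IL-17 ratio was 0.594 (0.519 to 0.680). In that subset Il7r was still lower (0.372, 0.212 to 0.646), whereas Maf was not called (34 against 20 UMIs; 0.836, 0.467 to 1.53). Both subsets were chosen after seeing the data. Smaller sets did not all show lower values in cycling barcodes. The median of IL-17 list UMIs was 24 in the 2 cycling and 24.5 in the 24 resting barcodes led by Tcrg-V6, the IL-17 level was 976 and 1000 CPM in the 14 and 5 led by Tcrg-V1, and the median of cytotoxic list UMIs was 6 and 3 in the 16 and 5 led by Tcrg-V4.

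Between the class limits, levels changed at different points. The S phase list was at 1795 CPM in the 70 barcodes with 0 rule UMIs, 2856 in the 37 with 1, 6100 in the 20 with 2 to 4, 7317 in the 21 with 5 to 9 and 7117 in the 114 with 10 or more. The step for S phase thus lay below the cycling limit, while replication histones stood at 386, 586, 833, 1825 and 9029 CPM over the same bins and the G2 and M phase list at 1519, 1649, 2833, 3603 and 12708. The IL-17 list went the other way, with 6295, 4396, 3050, 1889 and 1503 CPM. The cytotoxic list had no steady order, with 7062, 4730, 6217, 3714 and 2602. Raw depth also rose over these bins, with medians of 5337, 6312, 8665.5, 10476 and 15642 UMIs. Its part in these steps was not tested.

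**Figure D3:**
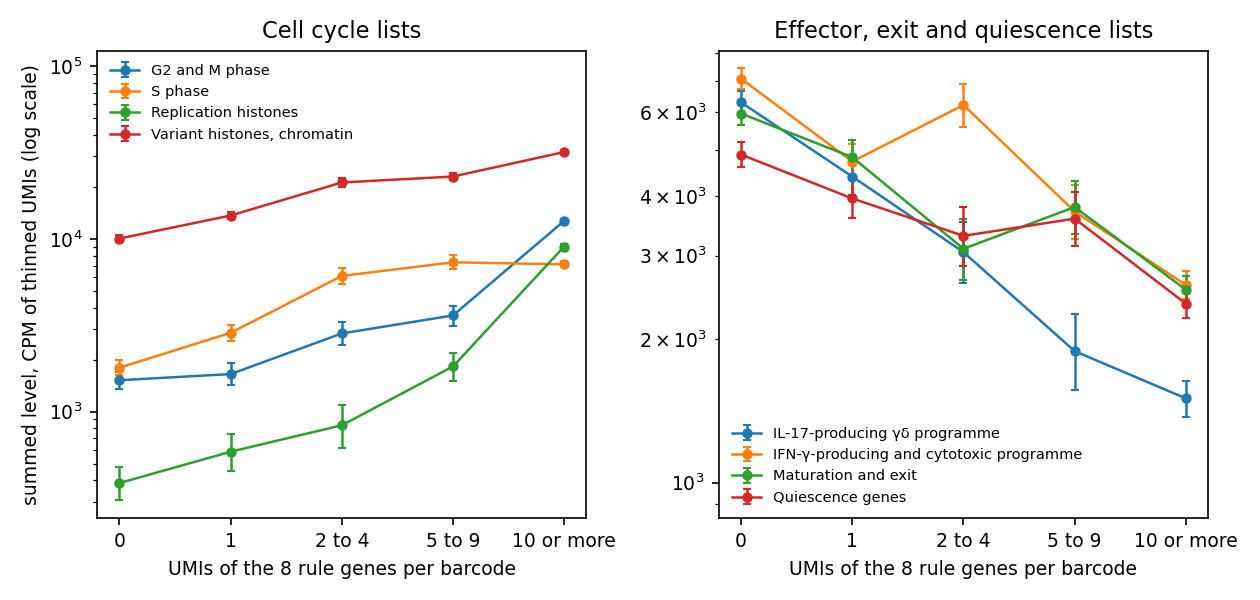
The x axis groups barcodes by their UMIs of the 8 rule genes and the y axis gives each list's summed level in CPM on a log scale, with exact 95% Poisson bars that cover counting error only. S phase levels off from 2 to 4 rule UMIs on, at 6100 to 7317 CPM, while replication histones go from 1825 to 9029 CPM in the last step. Median raw depth rises over the bins, from 5337 to 15642 UMIs.

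The resting class was not free of S phase transcripts. Of its 107 barcodes 8 held at least as many S phase UMIs as the median cycling barcode, which had 21, and 20 at least as many as its lower quartile of 11. None reached the cycling lower quartile of 16 for G2 and M phase, or the histone median of 23. Within the 135 cycling barcodes, S phase and G2 and M phase UMIs ran opposite (Spearman's rho -0.41), and histone and G2 and M phase UMIs ran together (0.41). All these points share 1 library and a fixed total of UMIs.

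**Figure D4:**
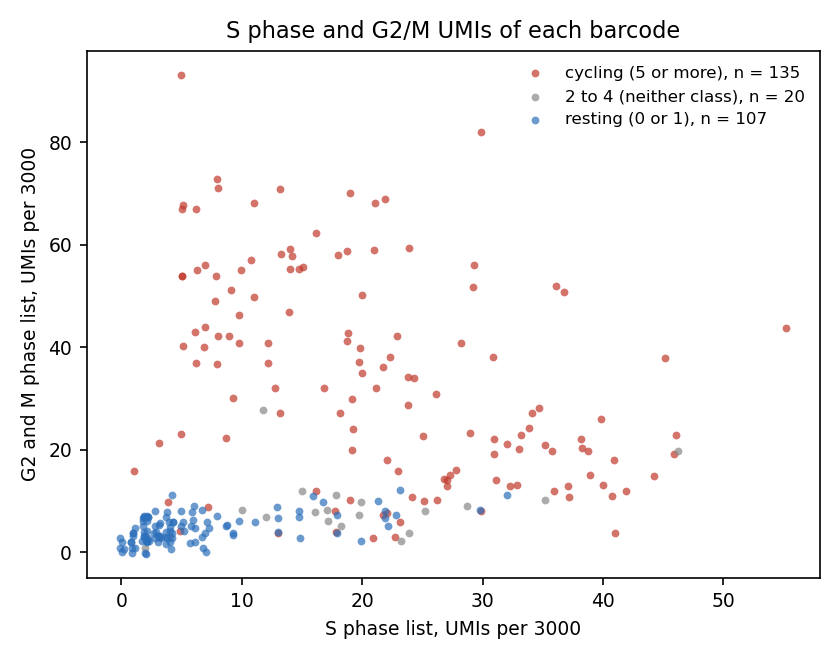
Each point is a barcode of 3000 thinned UMIs. The x axis gives its S phase list UMIs and the y axis its G2 and M phase list UMIs, with small random offsets. Cycling barcodes spread along an arc between high S phase and high G2 and M phase values, resting barcodes stay at or below 12 G2 and M phase UMIs, and 8 of them reach 21 or more S phase UMIs.

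Erythroid, epithelial, stromal and B lineage markers left few transcripts, while myeloid, innate lymphoid and NK, and αβ lineage markers left more. Erythroid markers were at 0 in both classes, epithelial and stromal markers summed to 7 and 14 UMIs, and B lineage markers to 9 and 16. Myeloid markers summed to 122 in cycling and 306 in resting barcodes, and 3 barcodes held most of them, with 62 (cycling), 75 and 161 (both resting). Apoe, a lipid carrier, had 15 against 104 UMIs and Lyz2, lysozyme, 5 against 63. Without the 3 barcodes Apoe had 3 UMIs in both classes and Lyz2 had 0. Selenop, with 19 against 111 UMIs over all barcodes, then had 15 against 70 (and over barcodes of 5000 to 12000 UMIs was not called, 0.556), Tyrobp 11 against 141 and Ccl5 57 against 535. The innate lymphoid and NK list, which shares Tyrobp, Fcer1g and Klrb1c with the cytotoxic list, summed to 94 against 447 UMIs (0.167, 0.132 to 0.209). Of its 5 tested members 4 were called lower (against 7.55% of all tested genes). The αβ lineage list summed to 1034 against 594 (1.38, 1.25 to 1.53). Before thinning, 2 or more raw UMIs of 6 αβ lineage genes were found in 28 of 136 cycling and 14 of 133 resting barcodes. Deeper barcodes reach that raw limit more readily. Without those αβ lineage barcodes (107 cycling and 95 resting left) 395 genes were higher and 259 lower, of 3907 tested. The libraries shared 0 barcodes.

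The rule was then applied to barcodes it had not used. Among the 733 low-ribosomal TMREhi barcodes, which had at least 500 genes and under 15% ribosomal protein UMIs, 212 (28.9%, 25.7 to 32.4) were cycling and 436 (59.5%, 55.8 to 63.1) resting, against 46.6% and 45.5% of the high-ribosomal ones. They were shallower, with medians of 2562 and 1203 UMIs, and depth sets how readily a barcode reaches 5 rule UMIs. Their median mitochondrial shares were 16.9% and 16.8%. At least 2 raw UMIs of 6 αβ lineage genes were found in 96 of 212 cycling and 116 of 436 resting ones. At 1000 UMIs each, 135 of 210 cycling and 87 of 292 resting ones held no γ segment UMI. High-ribosomal barcodes were counted at more UMIs each, which leaves fewer without such a UMI, so these shares cannot be compared. Whether the low-ribosomal barcodes differ in kind from the high-ribosomal ones was not tested. Thinned to 1000 UMIs (210 against 292 barcodes), 477 of 4993 tested genes (9.55%) were higher and 410 (8.21%) lower. Of the genes called higher in high-ribosomal barcodes, 362 were tested there, 221 were called higher and 0 lower. Of those called lower, 266 were tested, 144 called lower and 0 higher. The shared genes are 49.7% and 46.3% of the 2 higher lists and 42.6% and 35.1% of the lower ones.

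Some named genes had other ratios in the low-ribosomal barcodes. The resting classes were not alike, with rule genes at 171 CPM in low-ribosomal and 65.4 CPM in high-ribosomal resting barcodes. Hist1h2ap had 244 against 31 UMIs there (10.9-fold, 7.51 to 16.5) and Rrm2 65 against 8 (11.3-fold, 5.41 to 27.3). Il7r had a ratio of 0.211 (0.149 to 0.291) and Ccl5 0.158 (0.0699 to 0.316). Cd24a (13 against 18 UMIs; ratio interval 0.452 to 2.17) was not called there, and Gzma lay below 1 (0.608, 0.501 to 0.736).

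In the TMRElo library 16 barcodes passed the same limits and only 2 of them were cycling (12.5%, exact interval 1.55 to 38.3), with 13 resting. At 3000 UMIs the 2 cycling barcodes had 32833 CPM of replication histones against 481 in 9 resting ones, and 19833 against 1556 CPM of the G2 and M phase list. Their cytotoxic list was at 833 against 22296 CPM, and their IL-17 list at 1333 against 1815. With so few barcodes these are values only.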

How the data were processed

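Per the file headers, the authors deposited whole-number UMI counts per gene and barcode, written by Cell Ranger 3.0.2; the submitters' processing notes name Cell Ranger 3.0 and mm10. Not given in the sources used here are cell-calling settings and the gene annotation's release. The TMREhi library held 1202 barcodes and 4350480 UMIs, the TMRElo library 196 and 245048. Of 31053 genes, 36 symbols occurred more than once and were kept by identifier.

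Members, gene lists and named genes were chosen with earlier results of these data known. Barcodes were thinned to 3000 UMIs without replacement with numpy 2.4.6 under Python 3.11.15, and intervals were computed with scipy 1.17.1. UMIs were summed per class, and ratios carry exact conditional binomial 95% intervals; a class at 0 was set at 3 counts in list medians. Scrublet (scanpy 1.11.5) called 2 of 1025 barcodes doublets, 1 of them cycling, a rate too low to rely on; doublets were kept. Genes are named if they are rule genes, on a list of names, among the 15 largest or smallest ratios with at least 100 UMIs, or among the up to 4 most abundant or 3 most changed members of a list. The procedure was tested on simulated data: of 50 genes made 4-fold higher 50 were called, of 50 made 2-fold higher 17, and of 4069 unchanged genes 88. All simulated barcodes of a class shared 1 expression profile, unlike those of the data. These counts therefore cover counting error only and give no error rate for the calls above. Gene coordinates and promoters are on GRCm38. A few genes are not reported here.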

Additional observations from a re-analysis of the deposited data

How the results depend on the processing

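The numbers of genes higher and lower, 445 and 338, changed by over 1.5 times in at least one direction under several settings. They were 218 and 126 with barcodes thinned to 1000 UMIs, 690 and 782 with raw UMIs summed, 231 and 127 with a minimum of 50 UMIs, 251 and 165 with a 3-fold limit, and 340 and 154 with raw totals of 5000 to 12000 UMIs. In settings added after seeing the data they were 313 and 179 without Tcrg-V6 or Trdv4 barcodes and 230 and 127 in Trgv2-led barcodes. Fewer genes reached the minimum where fewer UMIs or barcodes entered. The lists at least 1.5-fold lower were 5, and 2 with totals of 5000 to 12000 UMIs.

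At those totals the interferon response list turned to 1.18, and called genes Btg2 (1), C1qa (1.15) and Pfkp (1.12) did too. Lists nearer 1 also crossed it there, with mitochondrially encoded mRNAs at 1.14, mitochondrial import at 0.985 and p53 genes at 1.22. With 1000 UMIs Dtx1 turned to 1.19 and Psmc6 to 0.869. Trac turned to 0.736 with another draw and 0.740 without αβ lineage barcodes. Cd69 turned to 1.08 without Tcrg-V6 or Trdv4 barcodes. Without the 3 barcodes of high myeloid counts, C1qa had 0 UMIs in cycling and 1 in resting barcodes, under the minimum. Its call over all depths thus rested on those barcodes, and its ratio of 1.15 was not recomputed without them. The cause of these turns was not tested. A minimum of 1000 genes left the same barcodes. No paired analysis was possible because each sorted population has 1 library. Genes under 20 thinned UMIs were not compared, and a single library gives no error between animals.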

Other observations

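Several smaller gene groups were also compared between cycling and resting barcodes, against 9.94% of all tested genes higher and 7.55% lower. Of 22 tested nucleotide synthesis genes 4 were higher, with a summed ratio of 1.52 (1.37 to 1.70); Mthfd2, a mitochondrial folate enzyme, had 49 against 13 UMIs and Dtymk, thymidylate kinase, 106 against 36. Of 31 proteasome genes 3 were higher, a share near that of all genes (summed ratio 1.39, 1.30 to 1.48). Of 19 TCA cycle genes only Idh3a was called (36 against 13 UMIs), and of 30 tested genes of mitochondrial import and dynamics only Timm8a1 (43 against 11), both below the share of all genes. Among barcodes of 5000 to 12000 UMIs Mthfd2 (1.91, 0.805 to 4.65), Idh3a (1.30, 0.569 to 2.93) and Timm8a1 (1.80, 0.857 to 3.84) were not called.

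Genes of survival and checkpoints were also compared. Bcl2a1b, a survival factor, was lower (1 against 27 UMIs; 0.0294, 0.000717 to 0.178), while Bcl2 was not called (0.764). Among barcodes of 5000 to 12000 UMIs Bcl2a1b had 5 against 22 (0.341, 0.101 to 0.923) and Bcl2 was lower (0.432, 0.245 to 0.728). Without barcodes holding Tcrg-V6 or Trdv4, Bcl2a1b had 0 against 3 UMIs, under the minimum. Chek1, the replication checkpoint kinase, had 24 against 2 UMIs, and Trp53 was not called (1.18). Of 11 tested receptor signal genes Nfkbia and Cd69 were lower, with 25 against 46 and 12 against 24 UMIs. Of 16 tested immature thymocyte genes Cd24a was higher and Dtx1, a Notch target, lower with 4 against 17 UMIs. Of 12 tested T cell receptor complex genes Zap70 was lower (24 against 43). At 5000 to 12000 UMIs Chek1 was under the minimum (10 against 2), and neither Dtx1 (0.529, 0.171 to 1.41) nor Zap70 (0.525, 0.264 to 0.986) was called.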
